A study of Mus musculus with 39 samples.

Results

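RNA that carried 4-thiouracil (4tU) after 4 days of dosing was compared with RNA of whole hindlimb muscle in the mouse. The comparison used 8 of the 39 sequencing libraries of the study, 4 per group, and all 16979 genes of one expression table, of which 11347 were high enough to test. The mice were Pax7CreER/+: UPRTHA/+, so that a drug-inducible Cre made in Pax7-expressing cells could switch on an HA-tagged uracil phosphoribosyltransferase (UPRT). In the 4-day group (labelled TU_4d) 4tU was injected every 12 hours for 4 days before the hindlimb muscles were harvested, and the RNA that had taken up 4tU was captured out of the muscle's total RNA. The reference group (labelled Input_muscle) was total hindlimb RNA with no pull-down. Its own label states no 4tU labelling, although the protocol can be read as naming it the starting RNA of the pull-downs, and its genotype is not given separately. The pull-down and, by that label, the drug both differ between the groups and cannot be told apart. No pull-down from mice without the transgene was analysed here, so RNA captured without label cannot be told apart from labelled RNA either. A second pull-down group (labelled TU_1d, 4 libraries), from mice of the same genotype dosed every 12 hours for 1 day, served as the nearest labelled material. No age, sex or schedule of Cre induction is given in the labels, nor whether the 4 libraries of a group came from 4 animals, so p-values measure the spread between these libraries, which may be technical.

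UPRT joins uracil to ribose phosphate, and many single-celled organisms use it to recycle free uracil. Mammalian cells do so poorly, and a cell given an active UPRT is meant to build 4tU into its new RNA, where the sulfur atom allows biotin to be attached and the RNA to be captured on streptavidin. Label in an RNA depends on how fast the RNA is made and lost, on how many uracils it holds and on how much free 4tU other cells can use. Satellite cells, the muscle stem cells marked by Pax7, are a small minority of the nuclei in a muscle whose RNA comes mostly from fibres.

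The gene models with the largest rises were not classical mRNAs. Among them were 4 short models with nearly the same sequence, shown here 5′ to 3′ from GENCODE M21 (mm10) because a read from one can belong to another; capitals mark the bases that differ from Gm23935.
Gm23935: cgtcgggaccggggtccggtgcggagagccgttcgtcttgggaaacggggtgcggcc
Gm24270: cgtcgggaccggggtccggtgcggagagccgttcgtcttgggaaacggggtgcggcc
Gm24187: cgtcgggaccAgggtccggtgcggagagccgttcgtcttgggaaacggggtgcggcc
Gm25911: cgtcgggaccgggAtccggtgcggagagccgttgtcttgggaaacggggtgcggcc
Gm23935 lies on the plus strand at chr16:11144125-11144181, Gm24270 on the minus strand at chr9:56223715-56223771, Gm24187 on the minus strand at chr13:9834469-9834525 and Gm25911 on the minus strand at chr1:167340369-167340424. Gm24270 is identical to Gm23935 over its 57 bases. Counted from 1 at the 5′ end of Gm23935, Gm24187 differs by G11A, and Gm25911 differs by G14A and lacks 1 base. Each of the 4 holds 9 uracils.

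Most interferon-induced genes, antiviral genes switched on through STAT and IRF factors at an element called the ISRE, were higher in the 4-day pull-down than in both whole muscle and the 1-day pull-down, as were most ribosomal protein and neutrophil genes and the globin genes described further on. The RefSeq promoters (GRCm38.p6, 250 bases before the start to 50 after it) of 3 of them that rose are shown, with capitals for matches to the core of that element, GAAA, then any 2 bases, then GAAA, on either strand; overlapping matches run together.
Isg15: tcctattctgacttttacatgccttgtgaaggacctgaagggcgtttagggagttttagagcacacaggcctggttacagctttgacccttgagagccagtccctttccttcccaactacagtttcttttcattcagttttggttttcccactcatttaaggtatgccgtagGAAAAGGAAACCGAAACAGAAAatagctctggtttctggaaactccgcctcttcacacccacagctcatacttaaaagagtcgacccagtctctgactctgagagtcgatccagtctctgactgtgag
Ifit3: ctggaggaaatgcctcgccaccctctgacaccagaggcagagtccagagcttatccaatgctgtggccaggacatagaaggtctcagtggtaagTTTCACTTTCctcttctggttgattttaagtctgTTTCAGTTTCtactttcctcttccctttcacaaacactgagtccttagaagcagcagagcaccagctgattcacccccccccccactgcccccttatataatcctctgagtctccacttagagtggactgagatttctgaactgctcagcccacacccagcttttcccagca
Bst2: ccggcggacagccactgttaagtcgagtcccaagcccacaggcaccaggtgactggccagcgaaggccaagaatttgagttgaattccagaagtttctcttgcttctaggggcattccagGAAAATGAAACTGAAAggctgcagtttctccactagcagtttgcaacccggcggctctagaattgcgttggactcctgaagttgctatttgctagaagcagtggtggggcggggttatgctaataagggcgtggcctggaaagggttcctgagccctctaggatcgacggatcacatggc
The windows are chr4:156200769-156201068 on the minus strand with 3 matches, chr19:34583279-34583578 on the plus strand with 2 and chr8:71537423-71537722 on the minus strand with 2. The motif was found in 11 of the 18 list members with a promoter in the table and in 3.44% of all 32851 promoters. A member was counted if any of its promoters matched, so these shares are not counted alike. The match did not follow the direction of change: B2m and Igtp, called lower than in muscle, held it, and Irf7, called higher, did not. This motif was chosen after the expression values were seen, and a match is only a match of letters. Of the motifs planned, the E-box was found in 5 of 17 clock genes and the D-box in 2 of 17. The core of the metal response element was found in 10 of 12 glucocorticoid and metallothionein genes. All promoters held these in 7.15%, 3.38% and 51.0%, in that order.

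The 8 libraries held between 40385703 and 102619074 reads, and every value of the table came back as a whole number of reads. Libraries of 1 group correlated across genes at r of 0.998 or more on the log2 scale, and none was a copy of another. TU_4d carries the tissue label of skeletal muscle stem cells. However, Pax7 and Calcr, markers that define those cells, were under 1 RPKM, above whole muscle and far below isolated stem cells. The longer list of satellite cell genes, given further on, was divided between higher and lower. Pax7, which encodes the factor that marks satellite cells, was at 0.234, 0.214, 0.205 and 0.130 RPKM in the 4 pull-down libraries and at 0.0768, 0.1001, 0.0978 and 0.0810 RPKM in whole muscle. The groups did not overlap, and the level was 0.196 ± 0.0453 RPKM (SD, n = 4) against 0.0889 ± 0.0118 RPKM, with isolated stem cells of the same table at 17.9 ± 1.20 RPKM. Calcr, the calcitonin receptor of quiescent satellite cells, was at 0.339 ± 0.0846 RPKM against 0.182 ± 0.0289 RPKM in muscle and 46.2 ± 1.91 RPKM in isolated cells. The means of the pull-down were 2.20-fold those of muscle for Pax7 and 1.87-fold for Calcr. Both fell under the level filter. In a fit with no filter their log2 changes were 0.24 (adjusted p = 9.7e-04) and 0.30 (adjusted p = 0.0021, limma). That scale adds 0.5 RPKM and so shrinks low genes. In the same fit 7489 of 16979 genes were called higher and 6747 lower, so a rise was common and not particular to these markers. Acta1, the actin of the fibre, was at 60577 ± 1533 RPKM in the pull-down and 49916 ± 1380.4 RPKM in muscle. The 38 fast and slow fibre genes listed took 28.1 ± 0.441% of reads in the 4-day pull-down and 26.3 ± 0.222% in muscle (SD, n = 4). The pull-down libraries are therefore called by their label name or as the 4-day pull-down below, not as stem cells. In such bulk RNA, fewer cells of a type and less RNA per cell cannot be told apart.

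Changes were fitted with limma on log2(RPKM + 0.5), for genes with at least 1 RPKM in 3 or more of the 8 libraries, and calls were made where the p adjusted by Benjamini-Hochberg was under 0.05. Of 11347 genes, 3189 (28.1%) were called higher in the 4-day pull-down and 6397 (56.4%) lower. The libraries of the groups did not overlap in 2936 genes that were higher (25.9%) and 6093 that were lower (53.7%). Most differences were small: 571 genes (5.03%) were at least 2-fold higher and 607 (5.35%) at least 2-fold lower. The last count was 238 with library sizes taken from all reads. The median change of all genes tested was -0.21, and this value depends on the scaling. With those sizes the median was -0.03 and the calls were 4474 higher and 5017 lower, so that the share of calls that were higher moved from 33.3% to 47.1%. With sizes from reads outside fibre, mitochondrial and globin genes that share was 48.8%. Group medians below are therefore set beside -0.21, and a small fall may turn into a rise on the other scalings. Of the genes tested, 621 were at 1 RPKM or more in no library of muscle and entered the test through the pull-down alone; they had to be higher, and they supplied 267 of the 571 genes at least 2-fold higher. Of the genes named below, these were Vmn2r-ps20, Olfr1124, Mx2, Foxo4, Per1, Notch3, Ppard, Zmat3, Utp20, Il6, Igf1r, Smad7, Vwf, Zfp239 and Tyms, whose direction against muscle was thus set by the filter and supports nothing. For Mx2 the same held against the 1-day pull-down. The reverse held for 191 genes, Cxcl5 among those named, with 11 of the 607 at least 2-fold lower.

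The counts also depend on the estimate of the spread. With all groups of the table in 1 fit, 1883 genes were higher and 4154 lower. In that fit 15 interferon-induced genes were higher and 2 lower, 61 ribosomal protein genes were higher, 12 mitochondrial tRNAs were higher, and 16 fuel-use, 14 macrophage and 11 lymphocyte genes were lower. Of the fast-fibre genes 3 were then higher and 1 lower, of the glucose-use genes 5 lower, of the nuclear respiratory chain genes 29 lower and of the matrix genes 2 higher and 9 lower. Acta1, Actn3, Mybpc2, Gapdh, Aldoa, Col1a1 and Map1lc3a were among the named genes whose call against muscle ended in it.

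**Figure D1:**
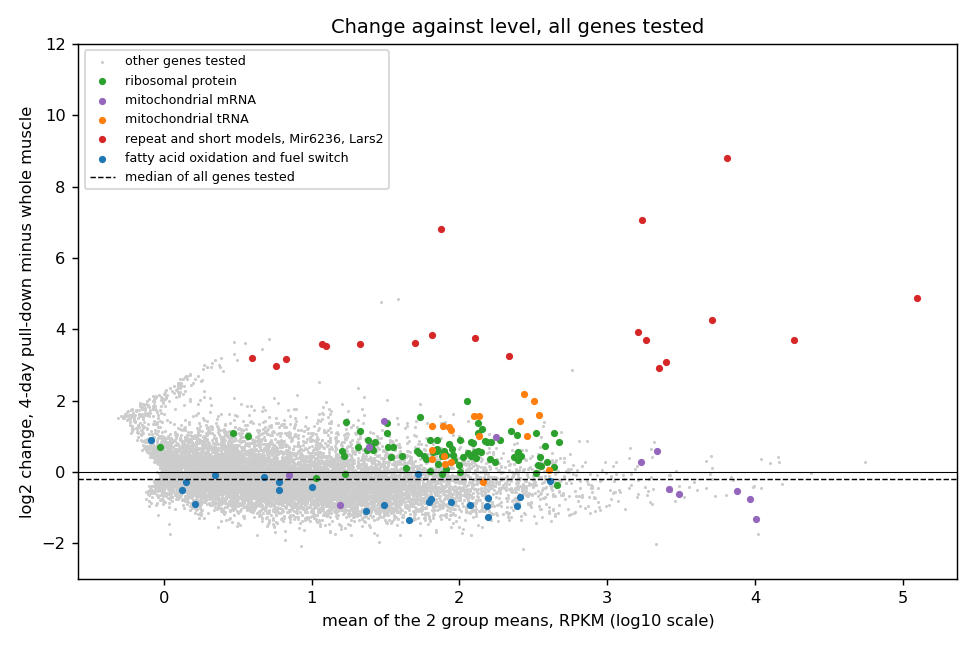
Log2 change of the 4-day pull-down against whole muscle (y axis) against the mean of the 2 group means in RPKM (x axis, log10 scale), 1 point per gene tested. Repeat and short gene models (red) stand between about 3 and 9, mitochondrial tRNAs (orange) and ribosomal protein genes (green) lie mostly above 0, and fuel-use genes (blue) mostly below the dashed line, the median of -0.21. The rising edge of grey points at the left is made of genes near 0 RPKM in muscle.

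The largest rises were in gene models known to collect reads of ribosomal RNA or of genomic repeats. Gm42418, a model on chromosome 17 that overlaps ribosomal RNA sequence, was at 15661, 11016, 12679 and 12437 RPKM in the pull-down libraries and at 29.8, 30.6, 31.6 and 22.2 RPKM in muscle. No library of one group came near the other, and the log2 change was 8.80 (SE 0.11, adjusted p = 1.6e-13). Gm26917, a long non-coding model of the same kind, rose from 40.7 ± 3.17 to 391 ± 21.1 RPKM. Together they took 1.74 ± 0.253% of the reads in the pull-down and 0.00551 ± 0.000481% in muscle.

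Of the short models shown above, Gm23935 reached 295163, 209149.8, 253569 and 212167 RPKM in the pull-down against 6803, 7749, 7010.0 and 11715 in muscle, a log2 change of 4.89 (SE 0.16). Gm24270, with the identical 57 bases, was at 3950.1 ± 465 against 531 ± 97.7 RPKM, a change of 2.91 (SE 0.12). Since their letters do not differ, how reads were divided between them rests on flanking sequence or on the counting, and their separate values are uncertain. Gm24187 changed by 7.08 and Gm25911, which had only 10 reads in the 4 muscle libraries, was at 208, 122, 158 and 108 RPKM in the pull-down. The 4 models took 1.03 ± 0.167% of pull-down reads and 0.0318 ± 0.00774% of muscle reads.

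Gm10800 and 11 related models form a second set, in which the others share between 32.8% and 46.8% of their 16-base words with Gm10800. Gm10800 was at 40942, 36566, 31512 and 26646 RPKM in the pull-down and 2559, 2401, 2636 and 2653 RPKM in muscle, a log2 change of 3.71 (SE 0.10, adjusted p = 2.6e-11). Gm10801 and Gm21738 changed by 3.70 and 3.93. These models share reads, so they count as 1 signal, which was 1.95 ± 0.380% of reads in the pull-down and 0.126 ± 0.00541% in muscle. Mir6236, a microRNA model with ribosomal RNA-like sequence, rose to 9789 ± 1424 RPKM from 506 ± 61.7, and Lars2, the mitochondrial leucyl-tRNA synthetase whose last exon is known to carry such sequence, to 4443 ± 355 from 524 ± 67.3 RPKM. Their log2 changes were 4.27 and 3.09; the values of Lars2 do not separate its coding part from that exon.

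**Figure D2:**
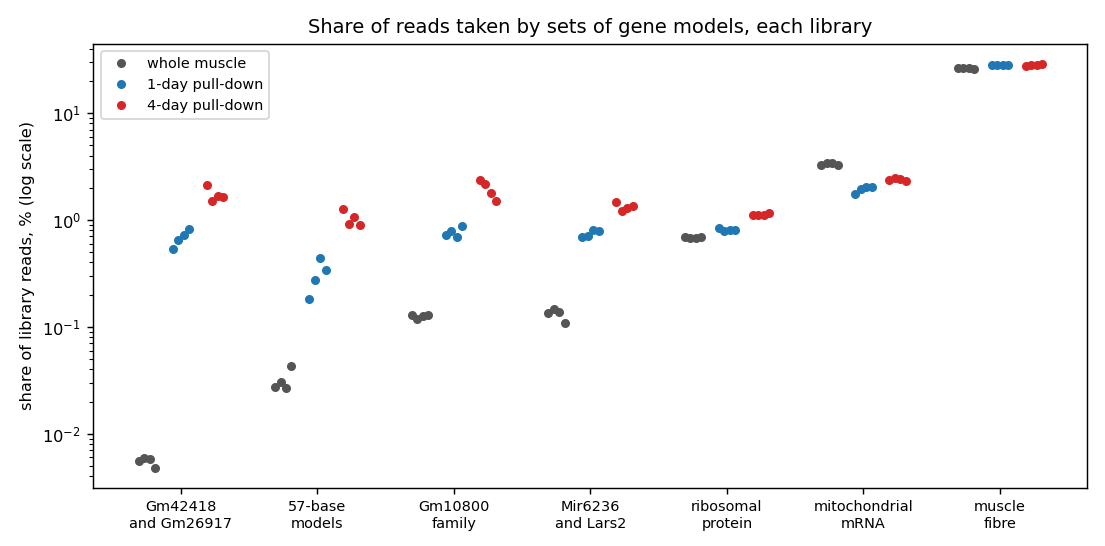
Share of each library's reads (y axis, percent, log scale) taken by 7 sets of gene models; each point is 1 library, grey for whole muscle, blue for the 1-day and red for the 4-day pull-down. The first 4 sets were higher in all 4 libraries of the 4-day pull-down than in any library of the other groups shown, whereas fibre genes took 26% to 29% of reads in every library.

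Other RNA classes also had more calls higher than lower. Genes at 1 RPKM or more in no muscle library had to be higher, Vmn2r-ps20 and Olfr1124 among them. Their number in these classes was not counted, so the class counts and medians may in part be set by the filter. Of 203 processed pseudogenes tested, 152 were called higher and 33 lower, with a median change of 0.84. Fau-ps2, a pseudogene of the ribosomal protein gene Fau, was at 69.1, 79.8, 72.5 and 78.2 RPKM in the pull-down and 2.12, 1.84, 2.10 and 2.32 in muscle, a log2 change of 4.86 (SE 0.06), while Fau itself was at 99.8 ± 3.91 against 101 ± 4.18 RPKM (log2 change -0.01, adjusted p = 0.77, and 0.18 with library sizes from all reads). Fau was named after its value was seen. Vmn2r-ps20, a vomeronasal receptor pseudogene, was at 9.99 ± 0.714 RPKM against 0.310 ± 0.212. Olfr1124, an olfactory receptor gene, had 2 reads in all of muscle and 887 in the pull-down. Pseudogenes and receptor families share sequence with close copies, so these reads may belong elsewhere. Among 115 long intergenic RNAs 70 were higher and 28 lower, and among 115 antisense models 67 and 25; the antisense counts cannot be told from their sense partners unless strand was counted, which no source used here gives. Protein-coding genes had 2750 calls higher and 6229 lower of 10642.

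The remaining genes at the top of the protein-coding and small RNA ranks were of mixed function. Mafa, a MAF family transcription factor, rose from 2.74, 3.05, 2.59 and 3.60 to 15.98, 17.7, 25.8 and 18.8 RPKM (log2 change 2.51, SE 0.13). Capn1, the catalytic subunit of the protease calpain 1, changed by 2.15; Cenpb, which binds centromere repeats, by 2.09; and Ctdnep1, a phosphatase of the nuclear envelope, by 2.03. Rn7sk, the small nuclear RNA that holds the elongation factor P-TEFb inactive, changed by 1.94, and Hist1h4d, a replication-dependent histone H4 gene, by 1.91. In all 6 the lowest pull-down library exceeded the highest muscle library.

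Ribosomal protein genes, which encode the structural proteins of the cytosolic ribosome, were higher in the 4-day pull-down almost as a block. Of 82 tested, 75 were called higher and 2 lower, 15 at least 2-fold higher, and their median change was 0.58 where that of all genes was -0.21. Of the 75, 1 was under 1 RPKM in every muscle library and had to be higher. Rps12 was at 184, 173, 178 and 185 RPKM in the pull-down and 45.4, 42.2, 44.3 and 48.0 RPKM in muscle, a fold of 3.97 (SE 0.04 on the log2 scale, adjusted p = 6.9e-12). Rps21 changed by 1.55, Rps15a by 1.41 and Rpl7 by 1.36, each without overlap between groups. The 2 that were lower were Rpl4 (-0.36) and Rps4l (-0.18, which became 0.01 with library sizes from all reads). The second replicate of the 4-day pull-down was the lowest of the 4 in 63 of the 82 genes; without it the list's median was 0.59. The list's share of reads was 1.12 ± 0.0335% against 0.686 ± 0.0121%. Ribosomal protein genes have many processed pseudogenes, with which reads could be exchanged.

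RNA of the mitochondrial genome split by class. Of the 19 mitochondrial tRNAs, which decode the organelle's own messages, 17 were higher and 1 lower (mt-Te, the glutamate tRNA, -0.28, a call that ended with library sizes from all reads), 12 at least 2-fold higher, with a median of 1.19. mt-Tq, the glutamine tRNA, was at 603, 494, 315 and 403 RPKM against 102, 89.5, 102 and 93.5 RPKM, and mt-Ti, the isoleucine tRNA, at 695, 539, 438 and 388 against 119.6, 129.9, 125 and 134 RPKM. Their log2 changes were 2.18 (SE 0.15) and 1.98 (SE 0.14), and no libraries overlapped. mt-Tc (cysteine) and mt-Tn (asparagine) changed by 1.59 and 1.43. The libraries were primed with oligo(dT), so a tRNA read may come from a longer polyadenylated precursor.

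The 12 mitochondrial mRNAs did not move as one: 5 were higher and 6 lower, with a median of -0.28. CYTB, cytochrome b of complex III, was at 5373, 5785, 6041 and 5948 RPKM in the pull-down and 13791, 14542, 14952 and 14131 RPKM in muscle, a log2 change of -1.31 (SE 0.04, adjusted p = 7.3e-11). ND1, a complex I subunit, fell by 0.77 and ATP6, of the ATP synthase, by 0.92, whereas ND4L, the shortest complex I subunit, rose by 1.42. The others that rose were the complex I subunits ND3 (0.97), ND6 (0.60) and ND5 (0.28) and COX3 of cytochrome oxidase (0.71). ATP6 and COX2 were listed near 10 RPKM, far under the other mRNAs, and parts of this genome have near-identical copies in the nuclear genome, so their levels are uncertain. Of the 2 mitochondrial rRNAs, mt-Rnr1 (small subunit) changed by 0.83 and mt-Rnr2 (large subunit) by 0.11 (adjusted p = 0.25). With library sizes from all reads mt-Rnr2 passed the test, at 0.30 (adjusted p = 0.0070). All 12 mRNAs together took 2.39 ± 0.0659% of reads in the pull-down and 3.34 ± 0.0721% in muscle.

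Respiratory chain genes of the nucleus were mostly lower in the pull-down: 67 of 92 were lower and 13 higher, 4 of them at least 2-fold lower, with a median of -0.25, close to that of all genes. Cycs, cytochrome c, was at 144, 141, 145 and 150.0 RPKM against 354, 367, 378 and 396 RPKM, a log2 change of -1.36 (SE 0.04). With library sizes from all reads the list's calls were 45 lower and 33 higher.

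**Figure D3:**
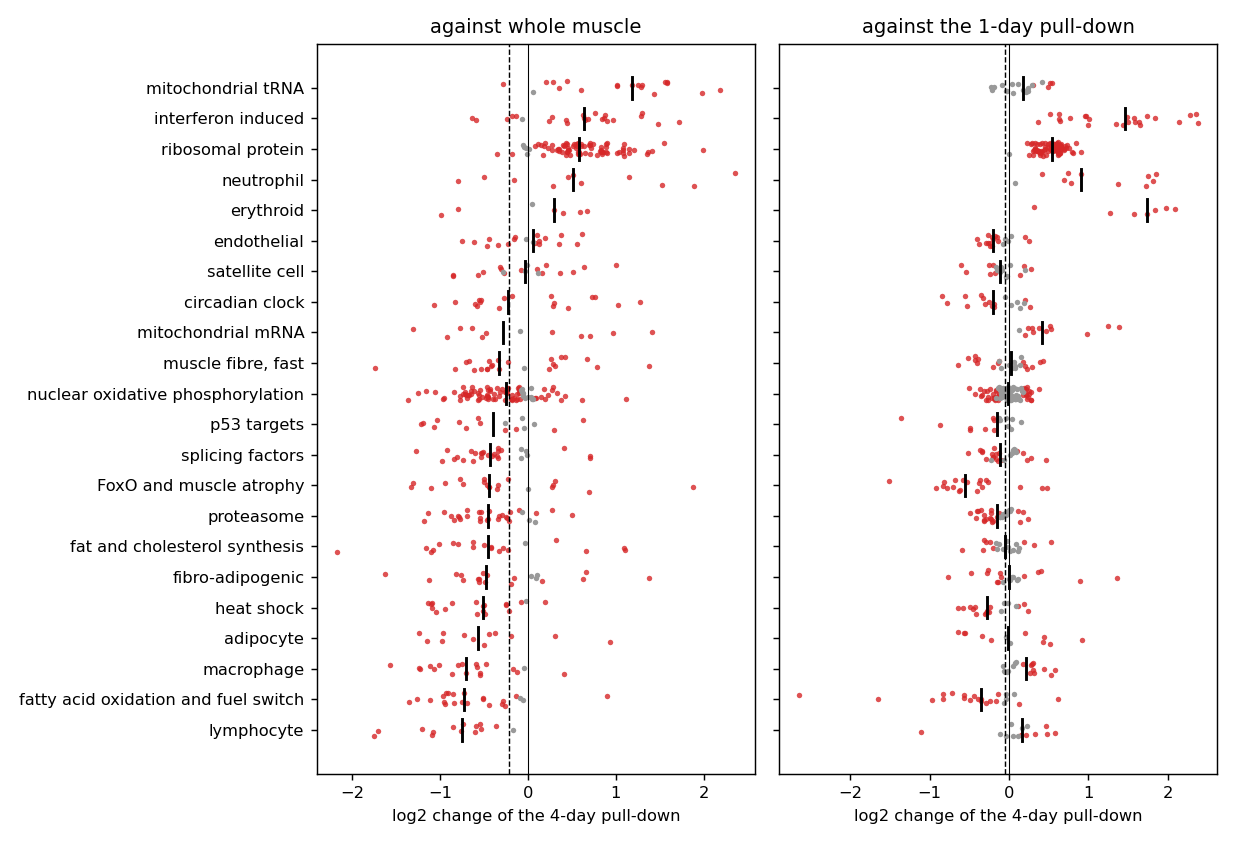
Log2 change of each tested member of 22 gene lists (points; red where the adjusted p is under 0.05, grey otherwise) in the 4-day pull-down against whole muscle (left) and against the 1-day pull-down (right). Black bars are list medians and the dashed lines the medians of all genes tested. Lymphocyte, fuel-use and macrophage genes have the lowest medians on the left, and interferon-induced, erythroid and neutrophil genes the highest on the right.

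Interferon-induced genes were mostly higher in the 4-day pull-down. Of 24 tested, 18 were called higher and 5 lower, 4 at least 2-fold higher, with a median of 0.64. Of the 18, 2 were under 1 RPKM in every muscle library and had to be higher. Isg15, a ubiquitin-like modifier, was at 20.9, 26.2, 30.7 and 30.8 RPKM in the pull-down and 8.24, 6.59, 7.94 and 8.71 RPKM in muscle. The lowest pull-down library was above the highest muscle library by more than 2-fold, and the fold was 3.28 (log2 SE 0.11, adjusted p = 2.2e-08). Ifit3, an RNA-binding antiviral effector, was at 18.6, 27.1, 28.3 and 29.7 against 8.47, 7.90, 9.10 and 9.91 RPKM, and Irf7, the transcription factor that amplifies interferon production, at 12.7, 14.9, 16.1 and 16.3 against 5.91, 5.23, 6.00 and 6.29 RPKM. Their log2 changes were 1.48 and 1.28, and Bst2 (tetherin, which holds viruses at the cell surface) changed by 1.30. Mx2 (an antiviral GTPase) changed by 0.97 but was tested through the pull-down alone and had to be higher. Among the 5 that were lower were B2m, the light chain of MHC class I (-0.64), Ifi27 (-0.60), the immunoproteasome subunit Psmb8 (-0.24, a call that ended when sizes came from all reads) and the GTPase Igtp (-0.18, which became 0.01 with library sizes from all reads). The summed level of the list went the other way from its counts, at 726 to 816 RPKM in the pull-down and 885 to 941 in muscle; B2m alone was at 381 ± 28.4 against 593 ± 17.7 RPKM. The first replicate of the 4-day pull-down was the lowest of the 4 in 21 of the 24 genes; without it the list's median was 0.75.

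The same libraries were tested against the 1-day pull-down, which was made by the same pull-down. All 24 interferon-induced genes were called higher at 4 days, where 21% of all genes were, with a median difference of 1.47 beside -0.04 for all 11232 genes tested. Of the 24, 2 were under 1 RPKM in every 1-day library and had to be higher, Mx2 among them. Isg15 was at 5.27, 4.97, 4.58 and 4.54 RPKM in the 1-day libraries, Ifit3 at 4.50, 4.85, 4.61 and 4.10 and Irf7 at 3.16, 3.04, 2.89 and 2.88. These lay below muscle, and the log2 differences between 4 days and 1 day were 2.36 (SE 0.10, adjusted p = 1.1e-08), 2.38 and 2.14. Ifit1 and Rsad2, whose products bind foreign RNA and make a chain-terminating nucleotide, differed by 2.28 and 1.66. No muscle library enters that test.

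**Figure D4:**
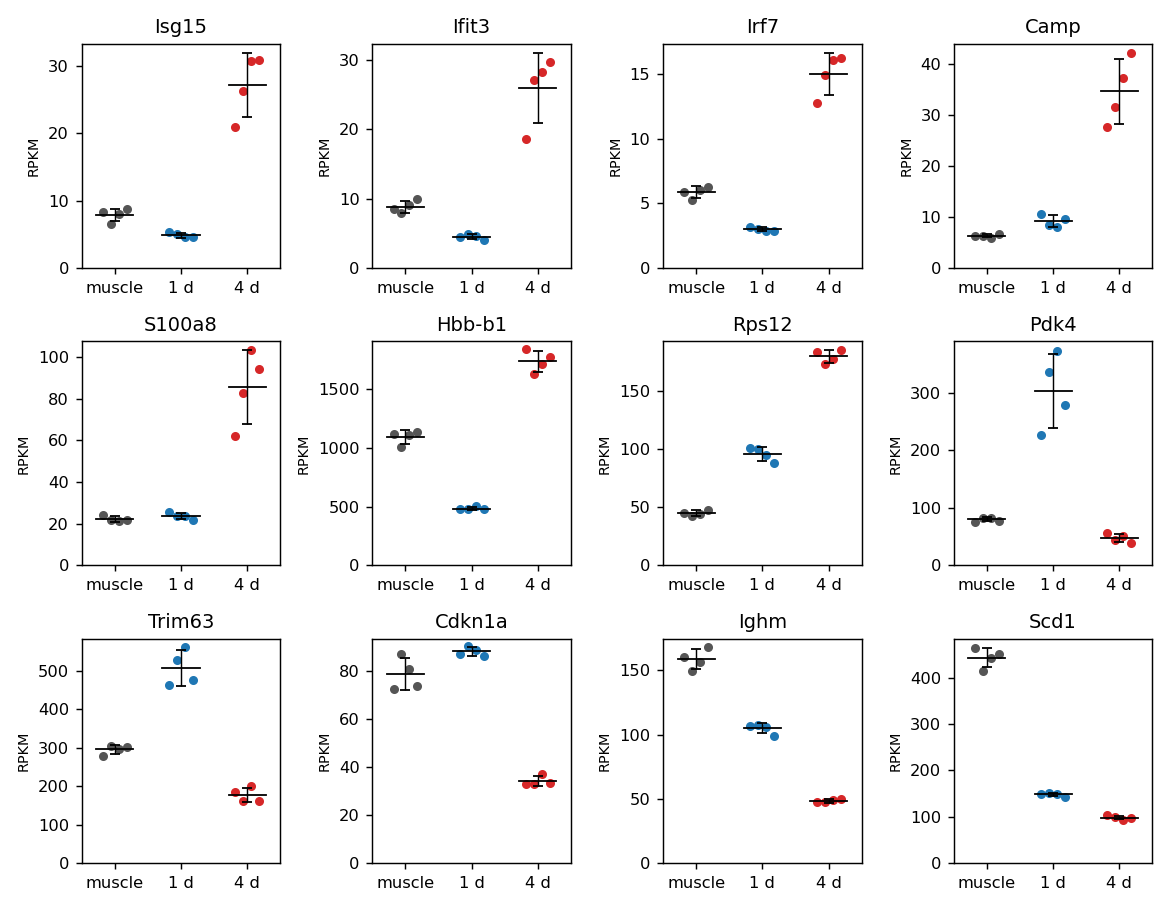
Level of 12 genes in RPKM (y axis, from 0) in each library of whole muscle (grey), the 1-day (blue) and the 4-day pull-down (red); lines and bars are the mean ± SD of 4 libraries. Isg15, Ifit3, Irf7 and Hbb-b1 were below muscle at 1 day and above it at 4 days, and Pdk4 and Trim63 the reverse.

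Neutrophil granule genes behaved in part like them. Of 11 tested against muscle, 8 were higher and 3 lower, 4 at least 2-fold higher, with a median of 0.51. Of the 8, 1 was under 1 RPKM in every muscle library and had to be higher. The first replicate of the pull-down was the lowest in 8 of the 11; without it the median was 0.52. Camp, the cathelicidin peptide of neutrophil granules, was at 27.6, 31.6, 37.4 and 42.2 RPKM against 6.30, 6.24, 5.93 and 6.66 RPKM in muscle and 10.5, 8.504, 8.07 and 9.70 RPKM at 1 day. The log2 change against muscle was 2.36 (SE 0.10, adjusted p = 4.8e-10) and the difference from 1 day 1.85 (adjusted p = 1.4e-07). S100a8 and S100a9, the 2 chains of calprotectin, rose by 1.89 and 1.52 against muscle. Ltf (lactoferrin) and Ngp (neutrophilic granule protein) rose by 1.15 and 0.60. The 3 that were lower were Chil3, a chitinase-like protein also made by macrophages (-0.80), Wfdc21 (-0.50) and the protease gene Mmp9 (-0.16, and 0.00 with library sizes from all reads). The summed level of the list was 198 to 287 RPKM in the pull-down and 114 to 118 in muscle, and all 15 listed genes of the table had reads in some library of the groups compared.

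Globin mRNA, which comes from reticulocytes in blood, was also above muscle at 4 days and below it at 1 day. Hbb-b1, a beta-globin gene, was at 1839, 1629, 1715 and 1777 RPKM at 4 days, 1118, 1010.4, 1112 and 1139 in muscle and 477, 478, 504 and 477 at 1 day. No groups overlapped; the change against muscle was 0.67 (SE 0.05) and against 1 day 1.84 (SE 0.05). Hbb-b2, Hba-a1 and Hba-a2 changed by 0.59, 0.39 and 0.30 against muscle; each pair of globin genes is nearly identical, so how reads were split between the copies is uncertain. With all groups of the table in 1 fit the calls of Hba-a1 (adjusted p = 0.16) and Hba-a2 (adjusted p = 0.30) against muscle ended. Bpgm, abundant in red cells but made elsewhere too, was lower than in muscle by 0.80, and Alas2, the erythroid heme synthesis enzyme, was at 24.5 ± 0.858 against 23.8 ± 1.99 RPKM (adjusted p = 0.46). The summed level of the erythroid list was 3579 to 4086 RPKM in the pull-down and 2556 to 2873 in muscle. Whether the blood content of the samples differed was not tested.

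Listed markers of other blood cells went the other way. No gene of the lymphocyte list rose and 13 of 14 fell, 5 of them at least 2-fold, with a median of -0.75. Ighm, the constant region of IgM, was at 47.2, 47.2, 49.3 and 49.5 RPKM against 160.4, 149, 157 and 168 RPKM, a log2 change of -1.70 (SE 0.04). Trac, the constant chain of the T cell receptor, changed by -1.75, Igkc, the kappa light chain, by -1.20, and Cd3g, a T cell receptor subunit, by -1.09. The summed lymphocyte level was 211 to 222 RPKM in the pull-down and 487 to 548 in muscle. Immunoglobulin V genes, which no list held, were divided: of 10 tested 6 were higher and 3 lower, with a median of 1.26. All 6 that were higher were under 1 RPKM in every muscle library and so had to be higher. The summed level of the 10 overlapped, at 16.4 to 24.99 RPKM in the pull-down and 20.5 to 24.2 in muscle. Of 19 macrophage genes, 17 fell and 1 rose, 6 at least 2-fold lower, with a median of -0.71. Fcgr3, an Fc receptor, fell by 1.57, Cd68, a lysosomal marker, by 1.23, Ctss, cathepsin S, by 1.11 and Lyz2, lysozyme, from 581 ± 27.8 to 276 ± 16.2 RPKM. The summed macrophage level was 533 to 593 RPKM in the pull-down and 909 to 1001 in muscle, and no listed marker of these blood cell types was without reads.

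The 15 largest falls were in genes of mixed function. Scd1, the desaturase that makes oleate, was at 103, 99.3, 93.5 and 96.1 RPKM in the pull-down and 465, 415, 442 and 451 RPKM in muscle, a log2 change of -2.17 (SE 0.04, adjusted p = 4.0e-12). Myot (myotilin, a Z-disc protein) was at 826, 843, 869 and 855 against 3194, 3359, 3482 and 3759 RPKM, and Car3 (carbonic anhydrase 3, abundant in fibres and fat) at 4811, 4801, 4889 and 4816 against 15572, 15933, 16390.5 and 16698 RPKM. In each of these genes the groups were far apart, with changes of -2.02 for Myot and -1.74 for Car3. Secreted or surface proteins among the 15 largest falls were Slpi (a protease inhibitor, -2.09), Angptl7 (an angiopoietin-like protein, -1.98) and Spp1 (osteopontin, -1.76). Arg1 (arginase, -1.91), Rnd3 (a small GTPase of the cytoskeleton, -1.78), Cav2 (caveolin 2, -1.78), Serp1 (an endoplasmic reticulum stress protein, -1.77), Fgf13 (an intracellular FGF homologue, -1.77), Ctsc (cathepsin C, -1.72) and Uchl3 (a ubiquitin hydrolase, -1.68) completed them, with Trac and Ighm.

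Genes of fatty acid oxidation and fuel choice were lower. Of 23 tested, 20 were lower and 1 higher, 3 at least 2-fold lower, and their median was -0.73 beside -0.21 for all genes. Cd36, the fatty acid transporter, was at 91.7, 93.1, 94.7 and 87.3 RPKM against 217, 216, 226 and 222 RPKM, a change of -1.26 (SE 0.03). Plin2, a coat protein of lipid droplets, changed by -1.35, Acadvl, the first enzyme of long-chain oxidation, by -0.95 and Hadhb, of the trifunctional enzyme, by -0.93. The 1 that rose was Ppard (0.90), a nuclear receptor for fatty acids, which was tested through the pull-down alone and had to be higher. In glucose use, 18 of 23 genes were lower and 2 higher (Gapdh, 0.30, and Aldoa, 0.26); Ldhb, the heart-type lactate dehydrogenase, changed by -1.18, Gbe1, the glycogen branching enzyme, by -1.27 and Pkm, pyruvate kinase, by -0.81.

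Pdk4, the kinase that shuts glucose carbon out of the mitochondrion in fasting, had the largest fall of the named genes between 1 day and 4 days. It was at 56.1, 44.9, 50.7 and 38.7 RPKM at 4 days, 76.3, 82.6, 83.2 and 77.5 in muscle and 226, 336, 373 and 278 at 1 day. It was thus below muscle at 4 days (log2 change -0.75, adjusted p = 4.9e-06) and above it at 1 day, and the difference between 4 days and 1 day was -2.65 (SE 0.14, adjusted p = 4.7e-08).

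Of 20 fat and cholesterol synthesis genes, 15 were lower and 4 higher. Besides Scd1, Pnpla3 (a lipid droplet lipase, -1.10) and Gpam (the first acyltransferase of glycerolipid synthesis, -1.01) fell by about 2-fold. Acacb, the acetyl-CoA carboxylase of the mitochondrial surface, rose from 8.11, 8.54, 8.80 and 7.98 to 18.3, 18.4, 18.8 and 18.8 RPKM (1.11), with no overlap. The other 3 that rose were Srebf1, the SREBP-1 regulator (1.09), Fasn, fatty acid synthase (0.66), and Acaca, the cytosolic acetyl-CoA carboxylase (0.32). Adipocyte markers fell in 10 of 12 and rose in 2. Ucp1, the uncoupling protein of brown fat, changed by -1.14, Adipoq (adiponectin) by -0.97 and Cidec, a droplet fusion protein, by -0.98, while Plin4, a droplet coat protein also made in fibres, rose by 0.93 and Adig (adipogenin) by 0.30.

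Protein homeostasis genes were lower as groups. Heat shock and chaperone genes fell in 17 of 19 and rose in 1, with 5 at least 2-fold lower and a median of -0.52. Hspa5, the chaperone of the endoplasmic reticulum, was at 77.8, 76.4, 78.3 and 79.1 RPKM against 165, 163, 169 and 171 RPKM, and Hspd1, the mitochondrial chaperonin, at 76.2, 77.3, 78.1 and 80.8 against 162, 165, 169.7 and 169 RPKM. Both changes were close to 2-fold (-1.10 and -1.09), as was that of the cochaperone Dnaja1 (-1.10). Hspa1a, the inducible HSP70, was at 1.90 ± 0.102 against 2.36 ± 0.206 RPKM (-0.25, adjusted p = 0.0017), a change close to the median of all genes and a call that ended when sizes came from all reads. The 1 chaperone that rose was Hspb1, the small heat shock protein HSP27 (0.19). Proteasome subunits fell in 25 of 31 and rose in 3 (Psmb5, Psmb4 and Psma5 of the core particle, by 0.09 to 0.50), with a median of -0.46; Psmd12 and Psmd1, of the regulatory particle, changed by -1.14 and -0.96.

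Splicing factors and ribosome biogenesis factors were lower more often than all genes, of which 56.4% were. Splicing factors fell in 21 of 28 and rose in 3 (Srsf1, Tra2a and Luc7l2, by 0.41, 0.70 and 0.71), and Hnrnpa2b1, an RNA-binding protein of the spliceosome, changed by -1.27. Ribosome biogenesis factors, which build the particles that ribosomal proteins join, fell in 20 of 27 and rose in 5 (Heatr1, Polr1a, Nop10, Ddx21 and Utp20, by 0.13 to 0.38). Utp20 was tested through the pull-down alone and had to be higher. Nop56, of the box C/D particle, changed by -1.19. Malat1, a long RNA kept in the nucleus, was at 193, 174, 175 and 176 RPKM against 509, 489, 471 and 466 RPKM, a log2 change of -1.43 (SE 0.04). The next lists stood at the share of all genes. Of 20 genes of RNA polymerase II and its factors 11 fell (55%) and 5 rose (7 and 9 with library sizes from all reads), with Polr2a, the largest subunit, at 0.49 and Polr2b, the next largest, at -0.93. KRAB and other zinc finger genes, whose mRNAs are mostly low and short-lived, fell in 131 of 234 (56%) and rose in 55, with a median of -0.22 beside -0.21. The rises reached 1.76 in Zfp239, which was tested through the pull-down alone and had to be higher, and 1.37 in Zfp651.

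Atrophy genes, many of them targets of FoxO factors that drive protein breakdown in wasting muscle, fell in 14 of 20 and rose in 5. The share lower was 70%, where 56.4% of all genes were. Mstn (myostatin, the growth inhibitor) was at 47.5, 50.7, 53.3 and 43.2 RPKM against 118, 122, 127 and 123 RPKM, a change of -1.33, and the ubiquitin ligase gene Fbxo30 and the mitophagy gene Bnip3 changed by -1.30 and -1.10. Foxo4, one of the factors, was at 0.570, 0.552, 0.644 and 0.638 RPKM in muscle and 3.56, 3.49, 3.60 and 3.53 RPKM in the pull-down; it is counted among the 5 but was tested through the pull-down alone. The other 4 that rose were the autophagy genes Ulk1 (0.69) and Map1lc3a (0.27), the factor Foxo3 (0.31) and the ubiquitin ligase gene Fbxo31 (0.28). Trim63, the ubiquitin ligase MuRF1 that targets the sarcomere, was at 186, 161, 199 and 162 RPKM at 4 days, 278, 304, 297 and 302 in muscle and 463, 528, 563 and 476 at 1 day. It was below muscle at 4 days (-0.74) and above it at 1 day, with a difference of -1.52 between 4 days and 1 day (SE 0.08). Against 1 day, 17 of the 20 genes of this list were lower and 3 higher, where 33.3% of all genes were lower.

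Targets of p53, the DNA damage factor, fell in 10 of 16 (62.5%) and rose in 2 (Zmat3, 0.62, and Bbc3, 0.30). Of all genes tested 56.4% were lower, so this share was close to the background. Zmat3 was tested through the pull-down alone and had to be higher. Cdkn1a, the CDK inhibitor p21, was at 32.9, 32.9, 37.01 and 33.3 RPKM against 72.4, 86.8, 80.7 and 73.7 RPKM in muscle and 86.9, 90.2, 88.6 and 86.2 at 1 day. It changed by -1.19 against muscle (SE 0.06) and by -1.36 against 1 day (adjusted p = 1.1e-09). Eda2r, a death receptor of the TNF family, Mdm2, the ligase that degrades p53, and Ccng1, cyclin G1, changed by -1.21, -1.07 and -1.03 against muscle. Among the cell cycle inhibitors and D cyclins, 7 of 11 fell (63.6%) and 1 rose. The 1 that rose was Cdkn1b, the inhibitor p27 (1.14), and Ccnd2, cyclin D2, changed by -0.73. Of 13 genes of replication and mitosis 8 fell (61.5%) and 2 rose (Tyms, 0.48, and Cdc20, 0.46), with the replication factors Mcm6 and Pcna at -1.02 and -0.75. These shares too were close to that of all genes, and Tyms was tested through the pull-down alone.

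Stress and cytokine lists stood on both sides of the share of all genes that were lower, 56.4%. That share was 70.6% in the NF-kB and cytokine list and 66.7% in the integrated stress response. It was 75% in thiol and drug response and 50% in the glucocorticoid and metallothionein list. Of 17 NF-kB and cytokine genes 12 fell and 3 rose, and the falls included those of the chemokine genes Cxcl5 (-1.46), Ccl2 (-1.43) and Ccl7 (-1.03). Il6, the cytokine interleukin 6, was at 1.51, 1.25, 1.52 and 1.17 RPKM in the pull-down and 0.380, 0.480, 0.278 and 0.355 RPKM in muscle, with no overlap; it is counted among the 3 but passed the filter through the pull-down alone. The other 2 that rose were the NF-kB subunit genes Nfkb1 (0.58) and Relb (0.17). In the integrated stress response, which is run by ATF4 when translation is held back, 10 of 15 fell and 1 rose. Asns, asparagine synthetase, and Ppp1r15a, which restores translation, changed by -1.06 and -1.05. The 1 that rose was Atf5, from 3.05, 3.32, 3.29 and 3.07 to 12.6, 11.2, 12.1 and 11.7 RPKM (1.75, SE 0.05), while Atf4 itself was at 97.4 ± 3.97 against 101 ± 4.49 RPKM (adjusted p = 0.30). Of 16 genes of thiol and drug response 12 fell and 1 rose (Gstp1, 0.27), with the glutathione transferase gene Gsta3 at -1.06 and Nfe2l2, the regulator NRF2, at -0.85. Of 16 glucocorticoid-responsive and metallothionein genes 8 fell and 5 rose, with Glul, glutamine synthetase, at -1.10 and Ddit4, an inhibitor of mTOR, at 0.74.

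Of 20 genes of IGF, HGF and FGF signalling 10 rose and 6 fell (30%, where 56.4% of all genes were lower). Of the 10, 2 were under 1 RPKM in every muscle library and had to be higher. Igf1, the growth factor, was at 4.35, 4.26, 4.13 and 4.17 RPKM against 8.10, 7.73, 7.93 and 8.02 RPKM, and its receptor Igf1r at 1.46, 1.61, 1.52 and 1.57 against 0.660, 0.777, 0.638 and 0.509 RPKM. The ligand was lower (-0.84) without overlap, while the receptor was tested through the pull-down alone and had to be higher. Fgf7, a ligand of stromal cells, changed by -1.37 and Spry2, an inhibitor of the pathway, by 1.09. In BMP and TGF-beta signalling 10 of 18 fell (55.6%, close to the share of all genes) and 6 rose. The receptor genes Acvr2a and Tgfbr1 changed by -0.83 and -0.69, and the inhibitor genes Nog and Smad7 by 1.29 and 0.94. Smad7 was tested through the pull-down alone and had to be higher. Of 12 imprinted genes 6 fell (50%) and 4 rose, with Nnat (neuronatin) at -1.30 and the long RNA H19 at 1.23. Of 11 Notch pathway genes 4 rose and 4 fell (36.4%), with the ligand gene Jag2 at 0.95 and the glycosyltransferase gene Lfng at 0.73.

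Of 25 early response genes 12 were lower (48%) and 7 higher, and of 18 clock genes 10 were lower (55.6%) and 8 higher. Of all genes tested 56.4% were lower and 28.1% higher, so the share of clock genes that were lower was that of the background. In each of the lists, 2 of the higher genes were under 1 RPKM in every muscle library and had to be higher. Fos, Jun and Egr1, transcription factors induced within minutes of a stimulus, were at 4.63 ± 0.347, 45.1 ± 2.40 and 2.72 ± 0.143 RPKM in the pull-down. In muscle they were at 10.2 ± 0.908, 70.1 ± 0.995 and 5.39 ± 0.266 RPKM, so that each was lower in the pull-down, by 1.05, 0.63 and 0.87 on the log2 scale. Dusp1, a phosphatase that ends MAP kinase signalling, fell by 1.42, while Klf4, a zinc finger factor, rose by 0.96. In the clock, Arntl (the activator BMAL1) was at 11.1, 11, 11.3 and 10.7 RPKM against 23.1, 24.4, 23.8 and 23.4 RPKM, and its repressor Per1 at 2.72, 2.56, 3.01 and 2.55 against 0.726, 0.822, 0.959 and 0.795 RPKM. Arntl changed by -1.07, and Per1 was tested through the pull-down alone and had to be higher, with Per3 at 1.03 and the nuclear receptor Rora at -0.83. No harvest times are given in the labels, so the time of day was not tested.

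The markers of resident cells of muscle differed by list. Of 19 satellite cell genes tested, of 25 listed, 7 were higher and 8 lower, none at least 2-fold, with a median of -0.04 that turned to 0.16 with library sizes from all reads. Of the 7 that were higher, 2 were under 1 RPKM in every muscle library and had to be higher. Notch3, a receptor also made by pericytes, was among these 2, at 1.70, 1.92, 1.73 and 1.75 RPKM against 0.713, 0.677, 0.669 and 0.505 RPKM (1.00, SE 0.07). Vcam1 and Cd34, surface proteins used to sort satellite cells and shared with vessel cells, were lower by 0.86 and 0.85, and Musk, the agrin receptor of the synapse, by 0.51. Myf5, a myogenic regulatory factor, was at 1.48, 1.47, 1.48 and 0.611 RPKM against 1.603, 1.53, 1.598 and 1.58 RPKM; all 4 pull-down libraries lay below muscle, the fourth far below, and the change did not pass the test (adjusted p = 0.11). Myod1, another such factor, was at 26.9 ± 0.379 against 28.5 ± 0.499 RPKM, and its small change of -0.08 became 0.11 with library sizes from all reads.

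Fibro-adipogenic cells, the connective tissue progenitors, had 13 of 20 markers lower and 4 higher, with a median of -0.48. The share lower was 65%, where 56.4% of all genes were. The proteoglycan genes Lum and Dcn were at 33.9 ± 1.64 and 379 ± 10.3 RPKM against 106 ± 3.34 and 829 ± 26.6 RPKM in muscle (log2 changes -1.62 and -1.13), and Clec3b, the plasminogen-binding protein tetranectin, rose by 1.37. The other 3 that rose were the surface proteins Thy1 (0.66) and Ly6a (0.62) and collagen gene Col1a1 (0.16). Of 30 matrix genes 15 fell (50%) and 11 rose. Timp3, an inhibitor of matrix proteases, Lox, which crosslinks collagen, and Postn (periostin) were lower by 1.34, 0.99 and 0.78. The basement membrane collagens Col18a1 and Col4a1 were higher by 0.67 and 0.36. Endothelial markers had 9 of 19 higher and 8 lower (42.1%), with a median of 0.06. Fabp4, a fatty acid binding protein of capillaries and fat, changed by -0.44, and the endothelial genes Tek, Emcn and Kdr by -0.75, -0.61 and -0.47. Vwf (von Willebrand factor) and Cdh5 (the endothelial cadherin) rose by 0.62 and 0.56, but Vwf was tested through the pull-down alone and had to be higher. The tendon genes Tnmd, Kera and Fmod were lower by 1.49, 1.30 and 1.11, and the tendon transcription factor gene Scx was higher by 0.84. Of 9 Schwann cell genes 6 fell (66.7%) and 1 rose, and the myelin genes Pmp22 and Mbp were lower by 1.35 and 0.78.

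Fibre genes were divided, with 14 of 24 fast-fibre genes lower (58.3%, where 56.4% of all genes were) and 9 higher. Ryr1, the calcium release channel and one of the longest muscle mRNAs, was at 62.2, 62.0, 64.6 and 65.6 RPKM against 22.5, 24.1, 25.99 and 24.6 RPKM (1.37, SE 0.04). Mybpc2 (fast myosin-binding protein C) was at -0.83 and Actn3 (fast alpha-actinin) at -0.67 on the log2 scale of change, while Acta1 and Ttn, the giant sarcomere protein titin, were higher by 0.28 and 0.67. Of 13 slow-fibre genes 7 were lower (53.8%) and 4 higher, and Myh7, the slow myosin heavy chain, fell by 0.64. Mef2c, a transcription factor of muscle differentiation, changed by -0.74.

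The uracil and uridine salvage list also holds enzymes that do not carry uracil or uridine into RNA. Its genes were lower in 10 of 18 (55.6%, where 56.4% of all genes were) and higher in 5. With library sizes from all reads they were lower in 8 and higher in 9. Uprt, the mouse homologue of the transgene, was at 0.505, 0.425, 0.429 and 0.497 RPKM against 0.977, 0.806, 0.947 and 0.952 RPKM; these values concern the endogenous gene as annotated and do not measure the transgene. Slc29a1, a nucleoside transporter, Umps, which makes UMP, and Uck1, a uridine kinase, changed by -0.64, -0.77 and -0.52. Cmpk2, a mitochondrial nucleotide kinase that interferon also induces, rose by 0.68 against muscle and by 1.25 against 1 day.

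Base composition of the transcripts went along with the change against muscle. Among 10632 protein-coding genes with a transcript in GENCODE M21, the quintile with the least U (up to 21.5%) had a median change of 0.03 and the quintile with the most U (from 27.8%) one of -0.45. At least 2-fold higher genes made up 7.24% of the first and 2.02% of the last quintile, and at least 2-fold lower genes 1.41% and 10.4%. By G+C content the medians ran from -0.49 in the lowest to 0.11 in the highest quintile. Across genes, which are not independent replicates, Spearman's rank correlation with the change was -0.31 for U and 0.39 for G+C, and -0.28 for the mean level of the gene. The difference between low-U and high-U quintiles was present in each tercile of level (0.23 and -0.27 in the lowest tercile, -0.14 and -0.62 in the highest). Against the 1-day pull-down the medians lay between -0.07 and -0.04 in every quintile of U, and that correlation was -0.04. Gene length went along with that difference more closely, with a rank correlation of -0.23, where it was 0.11 against muscle. The median difference was 0.07 in the shortest quintile (up to 1967 bases) and lay between -0.11 and -0.05 in the others. Protein-coding genes at least 2-fold higher at 4 days had a median length of 1800 bases, and all those tested 3537. U and G+C content are tied to each other and to library chemistry. Their part and that of length in the gene results above were not tested.

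**Figure D5:**
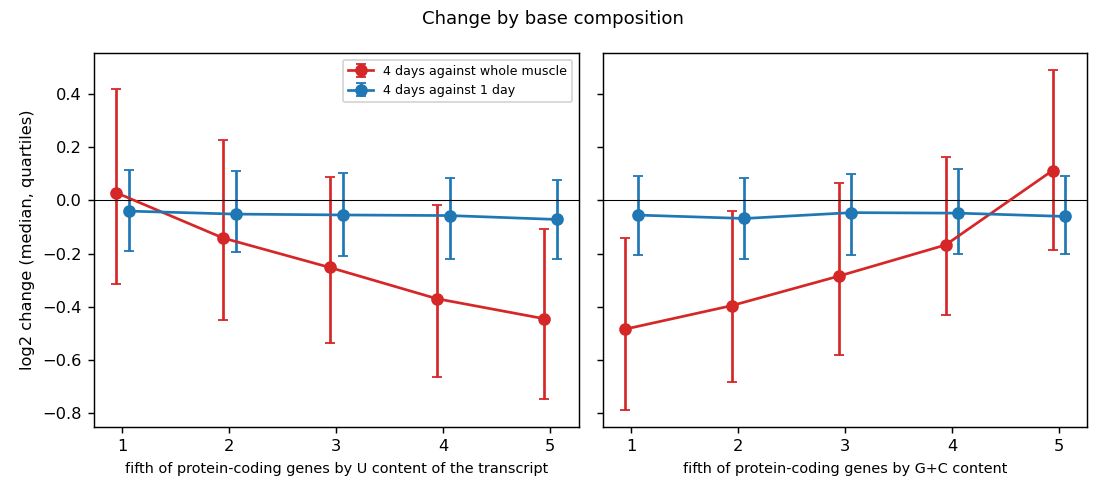
Median log2 change (points) with quartiles (bars) of protein-coding genes in quintiles by U content (left, from least to most U) and by G+C content (right). Against whole muscle (red) the median fell from 0.03 to -0.45 with rising U, and against the 1-day pull-down (blue) it lay between -0.07 and -0.04.

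Direct comparison of the 4-day with the 1-day pull-down showed a smaller set of differences. Of 11232 genes, 2354 (21%) were higher and 3736 (33.3%) lower at 4 days, 54.2% in all, and with all groups of the table in 1 fit 338 were higher and 526 lower. In that fit 23 of 24 interferon-induced genes, 6 of 7 erythroid, 7 of 11 neutrophil and 48 of 82 ribosomal protein genes were higher, and 11 of 20 atrophy genes were lower. Of the genes tested in these lists, 2 interferon-induced and 1 neutrophil gene were under 1 RPKM in every 1-day library, which fixed their direction. Libraries of the groups did not overlap in 17.2% that were higher and 30.8% that were lower. However, 84 (0.748%) were at least 2-fold higher and 20 (0.178%) at least 2-fold lower. Nmrk2, a kinase of the NAD salvage pathway made in muscle, was at 70.8, 86.3, 95.1 and 99.2 RPKM at 4 days and 16.5, 15.4, 15.5 and 15.9 at 1 day, with muscle at 35.1, 29.7, 33.4 and 36.5. It had the largest rise of the named genes (2.42, SE 0.08, adjusted p = 1.5e-09), followed by Ifit3, Isg15, Ifit1 and Irf7, the globin genes Hbb-b2 (2.09) and Hba-a2 (1.98), and Camp. Besides Pdk4, Trim63 and Cdkn1a, the largest falls were in Vcp-rs (-1.49), a sequence related to Vcp; Odf3l2 (-1.37), of the outer dense fibre family; Angptl7 (-1.22); Slc7a2 (-1.19), a transporter of basic amino acids; and Lrrc58 (-1.17), a leucine-rich repeat protein. Ribosomal protein genes were higher in 81 of 82, with a median difference of 0.55, and 10 of 18 macrophage genes were higher and none lower. With all groups in 1 fit only 1 macrophage gene was still called higher and 0 lower. The 19 mitochondrial tRNAs, the group farthest above muscle among these lists, were less apart from the 1-day pull-down: 4 were higher and 15 did not pass the test, with a median of 0.17. The repeat models differed as well, Gm42418 by 1.40 and Gm10800 by 1.34.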

How the data were processed

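Poly(A) RNA was measured by sequencing: 500 pg of RNA was reverse-transcribed with oligo(dT) priming (SMARTseq v4), amplified over 13 to 15 cycles and read as 101-base pairs, per the labels' protocols; no molecular identifiers are named. The deposited values are RPKM, in which reads are divided by gene length and by library size, for 16979 genes and 32 libraries. The submitters' processing notes name Trim Galore, STAR, featureCounts of Subread, edgeR and mm10; versions, strand setting and annotation are given in no source used here. RPKM steps gave back whole reads within 0.1 for all values in the libraries compared, which gave the depths of 40385703 to 102619074 reads per library, and showed that the deposited RPKM were divided by scaled library sizes, not by all reads.

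Groups followed the labels. limma 3.58.1 (R 4.3.3) was fitted on log2(RPKM + 0.5) to the 8 libraries of each comparison, with empirical Bayes trend, keeping genes that reached 1 RPKM in 3 libraries or more, and p-values were adjusted by Benjamini-Hochberg over all genes tested. The pseudocount understates changes of low genes. Adjusted p-values in the text are from this fit unless another is named. The fit was run on simulated data in which only 200 genes were changed. In the real data 9586 genes were called against muscle, so that run cannot vouch for the calls made here. Errors are the SD of 4 libraries or the SE of the log2 change. Lists are described by counts and medians, with no test of the list.

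Genes were named by rule: the 15 largest rises and falls (8 against the 1-day pull-down) among called genes at 5 RPKM or more whose libraries do not overlap, up to 4 members of each of 46 gene lists by adjusted p, and 10 fixed genes. Models with numbered names were named where a result turned on them. mt-Rnr2, Fau, Rpl4, Rps4l, B2m, Fasn, Ppard, Klf4, Hspb1, Bbc3, Zmat3, Adig, Acaca, Psmb5, Psmb4, Psma5, Srsf1, Tra2a, Luc7l2, Heatr1, Polr1a, Nop10, Ddx21, Utp20, Wfdc21, Mmp9, Ltf, Psmb8, Igtp, Thy1, Ulk1, Foxo3, Fbxo31, Map1lc3a, mt-Te, ND6, COX3, ND3, ND5, Nfkb1, Atf4, Igf1r, Col18a1, Polr2a, Vwf, Cdh5, Ttn, Scx, Gstp1, Gapdh, Aldoa, Relb and Tyms fall outside the rule and were named after their values were seen. A few genes that the rule or a small count would name are not reported here. The members and lists were chosen with earlier results of these data known. Motifs and transcript composition used RefSeq promoters (GRCm38.p6) and GENCODE M21 transcripts. Alternatives were other pseudocounts, filters, library scalings, limma-voom on recovered reads, all groups in 1 fit, a replicate block and leaving out each library.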

Additional observations from a re-analysis of the deposited data

Results flagged for a closer look

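In 23 of the genes named, the pull-downs lay on opposite sides of whole muscle: all 4 libraries of one were above all 4 of muscle and all 4 of the other below them. The difference between 4 days and 1 day was tested directly with limma, and each passed at an adjusted p under 0.05. Genes picked in this way cannot overlap between the pull-downs, so passing was nearly fixed by the choice and supports nothing further. For Mx2 the direction was set by the level filter in both comparisons. Among interferon-induced genes that were above muscle at 4 days and below it at 1 day, the log2 difference was 2.14 for Irf7, 1.35 for Mx2, 2.36 for Isg15, 2.38 for Ifit3, 2.28 for Ifit1, 1.66 for Rsad2 and 1.25 for Cmpk2. Among neutrophil genes that were above muscle at 4 days and below it at 1 day, the log2 difference was 1.76 for S100a9, 1.73 for Ngp, 0.69 for Lcn2 and 1.37 for Ltf. Among globin genes that were above muscle at 4 days and below it at 1 day, the log2 difference was 1.84 for Hbb-b1, 2.09 for Hbb-b2, 1.74 for Hba-a1 and 1.98 for Hba-a2. Of the others that were above muscle at 4 days and below it at 1 day, the log2 difference was 2.42 for Nmrk2 and 0.90 for Ly6a. In the reverse direction, below muscle at 4 days and above it at 1 day, the log2 difference was -2.65 for Pdk4, -0.58 for Hspa1a, -1.52 for Trim63, -0.24 for Myod1, -1.37 for Odf3l2 and -1.49 for Vcp-rs. Myod1 turns its direction against muscle with the scaling, so its place here depends on that choice. Hspa1a loses its call against muscle where sizes come from all reads (log2 change -0.09, adjusted p = 0.18) and with all groups of the table in 1 fit (adjusted p = 0.39), and Hba-a1 and Hba-a2 lose theirs in that fit. The summed neutrophil marker level was 198 to 287 RPKM at 4 days, 114 to 118 in muscle and 83.7 to 92.9 at 1 day, and its part in these differences was not tested.

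Of 729 groups of 4 libraries checked (every gene named, in each of 3 groups), 44 held 1 library that stood apart from the other 3 by Dixon's ratio, where chance sets apart about 1 in 20. In the 4-day pull-down, Slpi was at 3.77 RPKM in replicate 1 and between 2.60 and 2.66 in the others. Car3 was at 4889 RPKM in replicate 3 and between 4801 and 4816 in the others. Cidec was at 48.0 RPKM in replicate 1 and between 44.1 and 44.5 in the others. Cdkn1a was at 37.01 RPKM in replicate 3 and between 32.9 and 33.3 in the others. Myf5 was at 0.611 RPKM in replicate 4 and between 1.47 and 1.48 in the others. Malat1 was at 193 RPKM in replicate 1 and between 174 and 176 in the others. Adig was at 41.9 RPKM in replicate 1 and between 38.8 and 39.2 in the others. Luc7l2 was at 6.55 RPKM in replicate 4 and between 7.34 and 7.41 in the others. Col1a1 was at 48.6 RPKM in replicate 1 and between 44.7 and 45.1 in the others. Ccl2 was at 5.24 RPKM in replicate 1 and between 3.87 and 4.06 in the others. Ccl7 was at 10.1 RPKM in replicate 4 and between 10.7 and 10.8 in the others. Ccnd2 was at 6.29 RPKM in replicate 1 and between 6.99 and 7.02 in the others. In whole muscle, Olfr1124 was at 0.0681 RPKM in replicate 2 and at 0 in the others. Ctdnep1 was at 11.8 RPKM in replicate 1 and between 12.6 and 12.7 in the others. Rn7sk was at 3.15 RPKM in replicate 2 and between 1.70 and 1.93 in the others. mt-Rnr2 was at 4295 RPKM in replicate 4 and between 5126 and 5132 in the others. Lyz2 was at 539.8 RPKM in replicate 2 and between 589 and 599 in the others. Umps was at 7.06 RPKM in replicate 4 and between 6.20 and 6.32 in the others. Psmb4 was at 137 RPKM in replicate 1 and between 142 and 143 in the others. Ly6a was at 199.9 RPKM in replicate 2 and between 209.6 and 211 in the others. In the 1-day pull-down, Gm25911 was at 30.9 RPKM in replicate 3 and between 7.48 and 11.5 in the others. Vmn2r-ps20 was at 5.88 RPKM in replicate 3 and between 7.03 and 7.25 in the others. Mafa was at 20.4 RPKM in replicate 2 and between 23.4 and 23.8 in the others. Scd1 was at 142 RPKM in replicate 4 and between 149 and 151 in the others. Cav2 was at 16.9 RPKM in replicate 1 and between 21.2 and 21.7 in the others. ND4L was at 42.1 RPKM in replicate 4 and between 29.3 and 29.95 in the others. COX2 was at 2.56 RPKM in replicate 4 and between 2.17 and 2.19 in the others. Cycs was at 218 RPKM in replicate 1 and between 172 and 179 in the others. Ifi27 was at 93.1 RPKM in replicate 1 and between 78.7 and 80.2 in the others. Hbb-b1 was at 504 RPKM in replicate 3 and between 477 and 478 in the others. Igkc was at 93.6 RPKM in replicate 1 and between 70.4 and 72.8 in the others. Acadvl was at 162 RPKM in replicate 1 and between 139.8 and 143 in the others. Ucp1 was at 89.8 RPKM in replicate 1 and between 78.8 and 80.1 in the others. Psmd1 was at 59.4 RPKM in replicate 4 and between 62.6 and 63.0 in the others. Ryr1 was at 44.9 RPKM in replicate 1 and between 49.4 and 50.2 in the others. Umps was at 3.72 RPKM in replicate 1 and between 2.96 and 3.08 in the others. Dusp1 was at 47.3 RPKM in replicate 1 and between 39.3 and 40.2 in the others. Psma5 was at 296 RPKM in replicate 1 and between 248 and 253 in the others. Ly6a was at 162 RPKM in replicate 4 and between 174 and 176 in the others. Map1lc3a was at 883 RPKM in replicate 1 and between 763 and 778 in the others. Ccl2 was at 4.26 RPKM in replicate 1 and between 3.87 and 3.90 in the others. Ldhb was at 239 RPKM in replicate 1 and between 201 and 205 in the others. Jag2 was at 2.84 RPKM in replicate 4 and between 3.02 and 3.04 in the others. Aldoa was at 12565 RPKM in replicate 4 and between 12981 and 13058 in the others.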

How the results depend on the processing

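Against whole muscle, no filter on low values gave 7489 genes higher and 878 at least 2-fold higher, with 16979 genes tested. A fit of all 8 groups of the table gave 1883 higher and 4154 lower, and 338 and 526 against the 1-day pull-down; the cause was not tested. At least 2-fold lower genes numbered 238 with library sizes from all reads and 210 with sizes outside fibre, mitochondrial and globin genes, which raise the median of all genes by 0.18 and 0.20 on the log2 scale. limma-voom gave 133 genes at least 2-fold higher and 32 lower against the 1-day pull-down. The other settings kept these counts within 1.5 times.

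Leaving out 1 library gave 3061 to 3222 genes higher, 6223 to 6430 lower, 542 to 591 at least 2-fold higher and 581 to 624 at least 2-fold lower against muscle. Against the 1-day pull-down it gave 2046 to 2675, 3312 to 3708, 81 to 93 and 18 to 22.

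Of 8622 values of named genes under an alternative, 8277 kept their direction and side of the threshold, 290 kept only the direction, 41 newly passed and 14 turned. Those that turned did so with library sizes from all reads and with sizes outside fibre, mitochondrial and globin genes, in this order: Myod1 0.11 and 0.14, Slc7a2 0.055 and 0.077, Fau 0.18 and 0.21, Rps4l 0.011 and 0.033, Mmp9 0.0016 and 0.021, Igtp 0.013 and 0.036, and Atf4 0.15 and 0.17. With the same library sizes the medians of the satellite cell, slow-fibre, smooth muscle, Notch, early response, glucocorticoid, BMP, imprinted, uracil salvage, RNA polymerase II and matrix lists against muscle turned from below 0 to above it.

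Replicate numbers are shared by the groups but no label says what they mark. For each library the deviation of every tested gene from its group mean was taken. These deviations correlated between same-numbered libraries at 0.04 to 0.24 against muscle, and the highest value was at the library's own number in 3 of 4. Against the 1-day pull-down they correlated at -0.10 to 0.11. The main fit did not pair the samples, and whether same-numbered libraries of the pull-down and muscle share an origin was not tested. A replicate block gave 3268 genes higher and 6497 lower against muscle, and 2296 and 3623 against the 1-day pull-down. With it mt-Rnr2 passed the test against muscle (adjusted p = 0.013). Depth of at least 40385703 reads leaves 1 RPKM well above single reads for most genes; genes under it are limited by the added 0.5 RPKM.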

Other observations

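The repeat and ribosomal RNA-like gene models were also measured in the other groups of the same table. The Gm10800 models took 18.1 ± 2.43% of reads (SD, n = 4) in the pull-down labelled TU_6h in vivo, from mice given 4tU 6 hours before death, against 0.772 ± 0.0813% in TU_1d and 1.95 ± 0.380% in TU_4d. Gm42418 and Gm26917 took 0.580 ± 0.0103% of reads in TU_6h in vivo, 0.680 ± 0.118% in TU_1d and 1.74 ± 0.253% in TU_4d. The first set was thus highest in the shortest label and the other in the longest, and the 2 sets did not keep 1 ratio across the pull-downs. The listed fibre genes took 15.6 ± 0.152% of reads in TU_6h in vivo. These differences between groups were not tested.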
